A study of Mus musculus with 2 samples.

Results

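The genes described here code for MHC class I and for its loading with peptide: the heavy chains H2-K1, H2-D1, H2-Q4, H2-Q7 and H2-T23, the light chain B2m, the peptide transporter subunits Tap1 and Tap2, the loading chaperone Tapbp and the transactivator Nlrc5. They were chosen by name, and all 10 were found by symbol among the 31053 genes of the matrices. Of these, 8 had at least 100 UMIs in both libraries together and were compared among 10527 such genes. Molecular identifiers (UMIs) mark each captured transcript at its 3′ end. Counting them takes 1 tag per transcript, so levels of different genes need no scaling by length.

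To follow Usp18 loss in established leukemia, single cells were profiled from mice carrying AML1-ETO9a (AE9a), a truncated fusion oncoprotein that drives acute myeloid leukemia, expressed from a retrovirus with GFP. The transplanted cells of both groups carried floxed Usp18 and UBCER-Cre, a Cre-ER recombinase driven by the ubiquitin C promoter in all tissues and switched on by tamoxifen. Sick recipients, C57BL/6 mice with their own host cells, were injected with oil or with tamoxifen, and GFP+ Lin- c-Kit+ splenocytes, which lack mature lineage markers and carry the Kit receptor, were sorted on the third day after injections began. Each group was a pool of 3 mice sequenced as 1 library. Spread between animals was therefore not measured and no p-value is given. Recipients were 8 to 12 weeks of age by the study's methods. The labels disagree on the genotype. Title, genotype and treatment labels give Usp18f/f and Usp18delta/delta, whereas the treatment protocol gives Usp18+/f and a heterozygous deletion. The study's methods describe single cells of both designs, and Usp18f/f with Usp18delta/delta is its deletion of both alleles. The groups are named here by injection.

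The library labelled oil kept 6838 cells with 66045700 UMIs (median 8622.5 per cell), and the library labelled tamoxifen 6472 cells with 60661486 UMIs (median 8209.5). They shared 14 cell barcodes. Usp18 had 371 UMIs under the oil label and 933 under the tamoxifen label, a log2 ratio of 1.45 (1.28 to 1.63). The count was thus higher where the label gives a deletion. Tags from the 3′ end leave the loss of an exon further upstream unseen, so these counts cannot show whether the deletion took place. Directions are given between libraries as they are labelled. The interferon-stimulated gene (ISG) Isg15 had 47.8 and 114 CPM, which are UMIs scaled to a library total of 1000000, a log2 ratio of 1.25 (1.19 to 1.31). Ribosomal protein genes took 24.4% of UMIs under oil and 28.1% under tamoxifen. Genes defining B, T and NK cells, neutrophils and endothelium summed to at most 38 UMIs per list and library, and those of macrophages and dendritic cells to 111 and 145. Mast cell and basophil genes summed to 2284 and 2025 CPM, erythroid genes to 3468 and 4547 CPM and progenitor genes, among them Kit, to 171 and 232 CPM.

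MHC class I molecules display peptides from inside the cell to cytotoxic T cells and NK cells. A heavy chain holds the peptide in its groove and is stable at the surface only together with beta-2 microglobulin, the product of B2m. Peptides cut by the proteasome are pumped into the endoplasmic reticulum by the TAP transporter and fitted into new heavy chains by tapasin, the product of Tapbp, while NLRC5, interferon regulatory factors (IRFs) and NF-kB act on the promoters of heavy chain and B2m genes.

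On GRCm38, the assembly that mm10 names, 8 of the genes lie within 2.12 megabases of chromosome 17, the mouse MHC. B2m is on chromosome 2 (122147686 to 122153083, plus strand) and Nlrc5 on chromosome 8 (94434356 to 94527272, plus strand). H2-K1 spans 33996017 to 34000347 on the minus strand of chromosome 17 and H2-D1 35262730 to 35267499 on the plus strand. Tap1 (34187553 to 34197225, plus strand) starts 211 bases from the start of Psmb9, an immunoproteasome subunit gene on the opposite strand.

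Promoters are shown for the 3 most counted heavy chain genes and for B2m, because the library difference described next separates B2m from the heavy chains. They are RefSeq sequences on GRCm38.p6, from 250 bases before to 50 bases after the start site, read along the gene. Capitals mark 3 motifs, searched on both strands with letters picked after the sequences were seen: an IRF site in either of 2 forms (GAANNGAAA, or GAAA and GAAA with any 2 bases between them, printed as the reverse complement in all but B2m), an NF-kB or kB site (GGGA and CC with any 4 bases between them, where overlapping matches run together), and an X2-Y pair (TGACG with ATTGG 18 to 22 bases further on), the boxes bound by the complex that NLRC5 joins.
H2-K1 promoter, minus strand, chr17:34000298-34000597: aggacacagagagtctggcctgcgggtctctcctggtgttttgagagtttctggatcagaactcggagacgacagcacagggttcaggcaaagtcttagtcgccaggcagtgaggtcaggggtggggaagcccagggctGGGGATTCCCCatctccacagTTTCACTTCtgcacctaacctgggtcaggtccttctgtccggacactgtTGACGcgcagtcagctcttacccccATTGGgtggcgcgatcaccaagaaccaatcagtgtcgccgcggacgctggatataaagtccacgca
H2-D1 promoter, plus strand, chr17:35262844-35263143: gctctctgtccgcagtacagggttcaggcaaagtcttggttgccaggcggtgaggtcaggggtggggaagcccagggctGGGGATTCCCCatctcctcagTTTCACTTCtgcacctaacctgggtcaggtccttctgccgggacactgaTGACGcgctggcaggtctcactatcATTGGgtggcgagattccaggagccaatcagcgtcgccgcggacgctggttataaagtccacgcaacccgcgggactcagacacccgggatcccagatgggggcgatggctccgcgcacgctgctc
H2-T23 promoter, minus strand, chr17:36032652-36032951: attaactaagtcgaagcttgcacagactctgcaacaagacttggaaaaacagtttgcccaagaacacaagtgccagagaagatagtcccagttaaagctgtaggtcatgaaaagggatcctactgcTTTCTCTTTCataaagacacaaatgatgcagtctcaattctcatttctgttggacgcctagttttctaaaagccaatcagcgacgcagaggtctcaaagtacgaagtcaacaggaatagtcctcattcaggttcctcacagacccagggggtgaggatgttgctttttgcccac
B2m promoter, plus strand, chr2:122147437-122147736: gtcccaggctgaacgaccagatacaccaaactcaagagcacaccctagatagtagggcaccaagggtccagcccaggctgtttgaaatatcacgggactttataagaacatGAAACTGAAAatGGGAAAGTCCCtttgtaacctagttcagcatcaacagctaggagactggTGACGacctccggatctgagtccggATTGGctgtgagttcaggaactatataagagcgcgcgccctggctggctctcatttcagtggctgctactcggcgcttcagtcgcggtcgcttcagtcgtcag
Among 32851 promoters of that length, 10.4% hold an IRF site, 20.7% the kB site and 0.268% the X2-Y pair. A promoter was given for 8 of the 10 genes, all but Tap2 and Nlrc5. The shorter IRF form (7.52% of promoters) was found in H2-K1, H2-D1, H2-Q4 and H2-Q7, and the longer form (3.44%) in B2m and H2-T23. The kB site was found in H2-K1, H2-D1, H2-Q4, H2-Q7 and B2m, and the X2-Y pair in these without H2-Q4. All 3 motifs stood together in H2-K1, H2-D1, H2-Q7 and B2m and in 2 other genes of the table, the class I gene H2-M3 and Trim26, both named after the search. Counted in bases from the start site of the promoters shown, the IRF site began at -90 in H2-K1, -150 in H2-D1, -124 in H2-T23 and -139 in B2m. H2-K1 has another start site, from which it began at -104. H2-K1 and H2-D1 carry the same IRF letters, and these genes and B2m have 20 bases between the X2 and Y boxes. Tap1 and Tapbp matched none of the 3 motifs. A match is a description of letters, and a missing one says only that those letters are not in the window.

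To ask whether class I changed as a unit, the light chain was set against the heavy chains in each library. B2m was higher in the library labelled tamoxifen, at 489 CPM (484 to 495, 29693 UMIs) against 351 CPM (346 to 355, 23154 UMIs) in the library labelled oil. This is 1.40-fold, a log2 ratio of 0.48 (0.46 to 0.51), and only 3.30% of the 10527 genes had a higher ratio. The heavy chains together were slightly lower, at 1013 CPM (1005 to 1021) against 1089 CPM (1081 to 1097), a log2 ratio of -0.10 (-0.12 to -0.088), where the median over all genes was -0.063. All ranges are 95% intervals that cover counting error only.

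**Figure D1:**
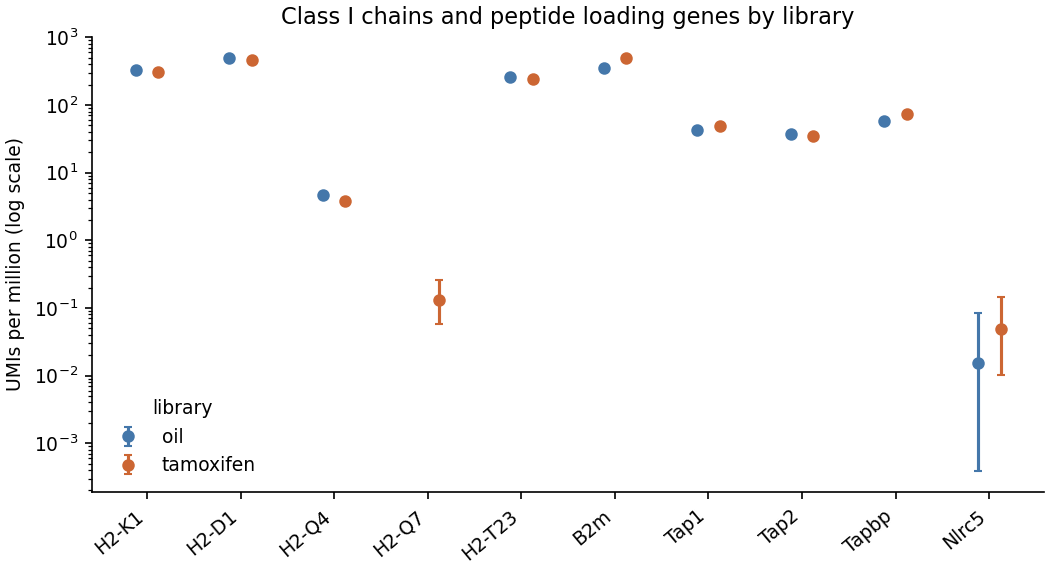
Level of each of the 10 genes in CPM on a log scale, with the library labelled oil in blue and the library labelled tamoxifen in orange. Points are library sums, bars are exact 95% Poisson intervals, and H2-Q7 has no oil point because it had 0 UMIs there. B2m stands above H2-D1 under tamoxifen (489 against 458) and below it under oil (351 against 498).

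The order of levels differed between libraries at its top. H2-D1 (Db), a classical heavy chain, led in the library labelled oil at 498 CPM (493 to 504) and was at 458 CPM (453 to 464) in the library labelled tamoxifen, where B2m came first. H2-K1 (Kb), the other classical chain, followed at 331 CPM (326 to 335) and 312 CPM (308 to 317). H2-T23 codes for Qa-1, a class Ib chain read by NK cells, and had 255 CPM (251 to 259) and 239 CPM (235 to 243). Below these came Tapbp, Tap1, Tap2 and H2-Q4 in both libraries. Neighbours in this order had intervals that did not overlap, except H2-Q7 and Nlrc5 at the bottom.

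The 3 abundant heavy chains differed between libraries by nearly the same amount. Their log2 ratios were -0.083 (-0.11 to -0.055) for H2-K1, -0.12 (-0.14 to -0.098) for H2-D1 and -0.094 (-0.13 to -0.062) for H2-T23. Of all genes, 46.1%, 38.6% and 43.95% had a lower ratio, so these chains stood near the middle of the transcriptome. The make-up of the heavy chain pool was therefore close between libraries. H2-D1 gave 45.8% (45.4 to 46.1) of heavy chain UMIs under oil and 45.2% (44.8 to 45.6) under tamoxifen, H2-K1 gave 30.4% (30.03 to 30.7) and 30.8% (30.4 to 31.2), and H2-T23 gave 23.4% (23.1 to 23.7) and 23.6% (23.3 to 23.9), with overlapping intervals for each.

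The low members add little signal. H2-Q4, a class Ib chain, had 303 UMIs (4.59 CPM, 4.09 to 5.13) and 227 UMIs (3.74 CPM, 3.27 to 4.26), a log2 ratio of -0.29 (-0.55 to -0.041). Its 3′ end shares 9.49% of its 90-base windows with transcripts of other genes, and that of H2-T23 13.4%, so their counts are less certain than those of H2-K1 (at most 0.487%), H2-D1 and B2m (0%). For H2-Q7 the share was at most 6.08%. H2-Q7, which codes for a Qa-2 chain, had 0 UMIs in the library labelled oil, with a floor of 3 counts at 0.0454 CPM and an exact 95% upper limit of 0.0559 CPM, and 8 UMIs in 4 cells of the other library. Set against that floor this is 2.90-fold higher, which is no lower bound, because the exact interval reaches down to a log2 ratio of 0.89. Of these 8 UMIs, 5 came from a single cell that had 0 UMIs of the mast cell gene Ms4a2 and 4 of lymphoid and myeloid marker genes, while the other 3 cells had 8 to 23 UMIs of Ms4a2 and none of those markers. Cpa3, another mast cell gene, had 0 UMIs in all 4 cells. Nlrc5 was at 1 and 3 UMIs, too few for any ratio, so the regulator best known for class I was close to undetected in both libraries.

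B2m per heavy chain transcript differed most clearly. There were 0.322 B2m UMIs per heavy chain UMI (0.317 to 0.327) under oil and 0.483 (0.476 to 0.490) under tamoxifen, a log2 difference of 0.59 (0.56 to 0.61). The difference was alike against each of the 3 abundant chains, with 1.06 and 1.57 B2m UMIs per H2-K1 UMI, 0.703 and 1.07 per H2-D1 UMI, and 1.37 and 2.05 per H2-T23 UMI. These were 1.48-fold, 1.52-fold and 1.49-fold differences. Per UMI of the sparse H2-Q4 there were 76.4 and 131 B2m UMIs. A ratio within a library does not depend on how libraries are scaled to each other.

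The loading genes differed among themselves. Tapbp, which codes for tapasin, had 57.4 CPM (55.6 to 59.3) and 72.9 CPM (70.8 to 75.1), a log2 ratio of 0.34 (0.28 to 0.41) that 6.18% of genes exceeded. Tap1 had 43.3 CPM (41.7 to 44.9) and 48.3 CPM (46.5 to 50.03), a log2 ratio of 0.16 (0.081 to 0.23). Tap2, the partner of Tap1 in the transporter, had 37.3 CPM (35.8 to 38.8) and 34.6 CPM (33.2 to 36.1), a log2 ratio of -0.11 (-0.19 to -0.022). Tap1 UMIs per Tap2 UMI thus stood at 1.16 (1.10 to 1.23) under oil and 1.39 (1.32 to 1.47) under tamoxifen, a log2 difference of 0.26 (0.15 to 0.37). The direction of Tap2 is not firm: with the stricter cell filter described next its log2 ratio was 0.16 and that of Tap1 0.28. Within the 15 overlapping classes of cells compared further on, the interval of Tap2 lay below 0 in 5 and that of Tap1 above 0 in 6.

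With 1 library per group, a gene is said to be past the fold when its ratio is at least 1.2-fold in either direction. B2m and Tapbp were past it on the higher side, 2 of 8 measured genes against 9.08% of all genes, and H2-Q4 on the lower side, 1 of 8 against 16.9%. The median log2 ratio of the 8 was -0.089 beside -0.063 for all genes. The H2-Q4 call rests on few counts and was lost under each of 3 other scalings between libraries and with equal weight for every cell. A stricter cell filter (at least 1000 genes, at most 5% mitochondrial UMIs), which left 673 and 771 cells, turned the heavy chain ratio to 0.055 and that of H2-Q4 to 0.90, and gave 0.78 for B2m.

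**Figure D2:**
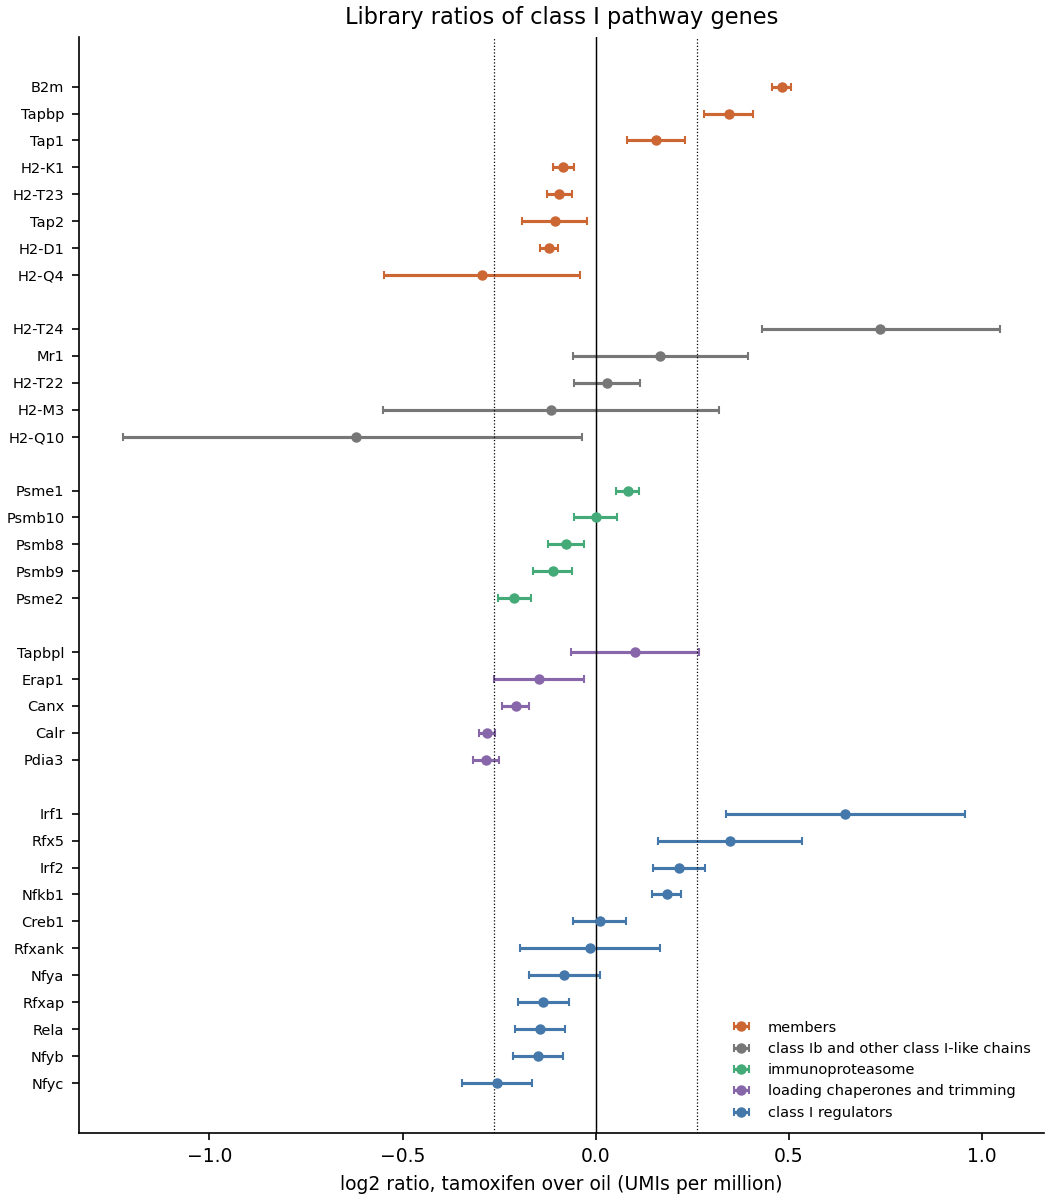
Tamoxifen-over-oil log2 ratio (x axis) for the measured genes of the class I lists reported here, grouped by list, with exact 95% counting intervals and dotted lines at 1.2-fold. B2m (0.48) and Tapbp (0.34) lie right of the line while H2-K1, H2-D1 and H2-T23 lie between 0 and -0.12.

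Counts of the wider pathway past the fold are to be read beside the same 9.08% of all genes on the higher side and 16.9% on the lower side. None of the 5 genes of the immunoproteasome and its activator PA28 was past the fold, with a median of -0.077. Psme1 (0.083) and Psmb10 (0.00011) were its highest, and Psme2 (-0.21) and Psmb9 (-0.11) its lowest, the last being the gene that starts beside Tap1. Among 8 genes of loading and trimming, which include Tap1, Tap2 and Tapbp, the median was -0.13. Calr (-0.28, -0.30 to -0.26) and Pdia3 (-0.28, -0.32 to -0.25), which code for the chaperones calreticulin and ERp57 that sit beside tapasin in the loading complex, were past the fold on the lower side, 2 of 8 beside 16.9% of all genes. Calreticulin and ERp57 also fold many other glycoproteins.

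Of 16 further class Ib and class I-like chains, 14 were in the matrices and 5 were measured. H2-T24 was higher, with 147 and 225 UMIs (log2 0.74, 0.43 to 1.05), and H2-Q10 lower, with 67 and 40 UMIs (log2 -0.62, -1.22 to -0.035). Mr1, which presents vitamin metabolites, had a log2 ratio of 0.17 (-0.060 to 0.39) and H2-M3, which presents formylated peptides, one of -0.11 (-0.55 to 0.32), both with intervals that include 0. Among the 11 measured regulators reported here the median was -0.015 and 2 were past the fold, both higher (9.08% of all genes were): Irf1 (0.64, 0.34 to 0.96) and Rfx5 (0.35, 0.16 to 0.53), the last named after its value was seen. IRF1 binds the IRF site and RFX5 belongs to the complex that binds the X boxes. Nfyc (-0.26) and Nfyb (-0.15), subunits of the factor that binds the Y box, were the lowest. Of 7 MHC class II genes only 2 were measured, neither past the fold. For comparison, 32 of 39 measured type I ISGs were past the fold on the higher side, beside 9.08% of all genes, with a median of 0.59.

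Next, B2m was examined against heavy chains cell by cell. Depth differs between cells, so each was thinned to 3000 UMIs by 1 random draw, which kept 6330 and 6127 cells and left out 508 and 345 shallower ones. B2m then averaged 1.23 UMIs per cell under oil and 1.79 under tamoxifen, and was seen in 63.9% (62.7 to 65.1) and 73.3% (72.1 to 74.4) of cells. Without thinning it was seen in 88.7% and 93.4%. Heavy chains averaged 3.73 and 3.38 UMIs and were seen in 94.8% and 93.9% of thinned cells. No cell type that lacks class I was at hand in the sort to give the level that free RNA alone would leave.

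B2m went up with the heavy chain level of the cell in both libraries. Cells with 0 heavy chain UMIs averaged 0.760 B2m UMIs (0.669 to 0.860) under oil and 1.1995 (1.09 to 1.32) under tamoxifen. Those with 8 or more averaged 2.14 (2.01 to 2.27) and 2.70 (2.53 to 2.89). In all 8 classes of heavy chain level the mean B2m count was higher in the library labelled tamoxifen, with intervals that did not overlap. A cell of that library with 1 heavy chain UMI thus held about as much B2m (1.37) as an oil cell with 5 (1.44).

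**Figure D3:**
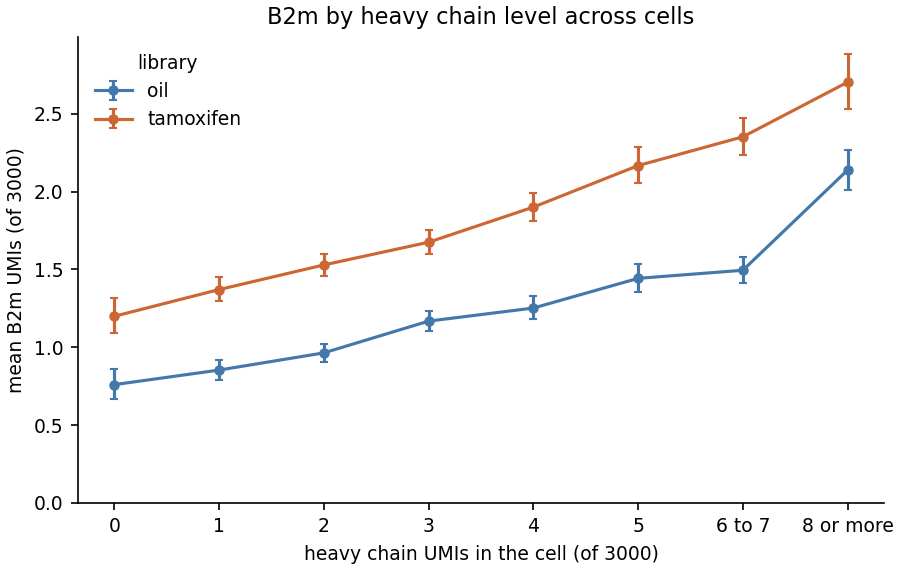
Mean B2m UMIs per cell (y axis) by the number of heavy chain UMIs in the same cell (x axis), both out of 3000, with exact 95% Poisson intervals. Both libraries climb, from 0.760 to 2.14 under oil and from 1.1995 to 2.70 under tamoxifen, and the tamoxifen line is above at each of the 8 points.

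Across cells the correlation was weak. Pearson's r of log2(UMI + 1) between B2m and the heavy chain sum was 0.227 over 6330 cells and 0.212 over 6127 cells, and 10 other draws gave 0.202 to 0.218 and 0.179 to 0.207, all below the draw reported. These points share a library and a sort, and a weak r in sparse counts is no finding by itself. Taking the counting variance out of each count, under Poisson sampling, left 0.612 under oil and 0.438 under tamoxifen, with 0.580 to 0.622 and 0.396 to 0.459 over the other draws. The same measure gave 0.654 and 0.716 between H2-K1 and H2-D1, 0.687 and 0.716 between H2-D1 and H2-T23, and 0.375 and 0.722 between H2-K1 and H2-T23, so 1 heavy chain pair under oil lay below the pairs with B2m that follow. B2m paired with single chains at 0.496 and 0.407 (H2-K1), 0.507 and 0.342 (H2-D1) and 0.578 and 0.452 (H2-T23), lower under tamoxifen each time. Other draws were summarised only for B2m with the heavy chain sum, so the spread of the single-chain values is not known. The variance of H2-K1 counts was little above the counting variance in both libraries, so its pairs rest on a small remainder. No difference between single-chain pairs, or between libraries for such a pair, is concluded from these values. Raw r of B2m with Tap1, Tap2 and Tapbp lay between 0.039 and 0.091 at levels under 0.25 UMIs per cell.

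The B2m part of class I also spread out. Among cells with at least 10 class I UMIs, B2m made up a median of 23.5% of B2m and heavy chain UMIs over 4843 cells under oil and 30.8% over 4587 cells under tamoxifen. The 5th to 95th percentiles ran from 6.25% to 47.6% and from 9.09% to 61.0%. Its variance was 1.53 times what binomial counting gives under oil and 2.24 times under tamoxifen. Variance over mean of the thinned B2m count was 1.74 and 2.39, while that of the heavy chain sum was 1.77 and 1.55. By variance over mean, cell-to-cell spread was larger under tamoxifen for the light chain and smaller for the heavy chains, a comparison of 2 libraries without a test. This measure can rise with the mean, and the means moved the same way (1.23 and 1.79 for B2m, 3.73 and 3.38 for the heavy chains). Spread was not compared within phase calls.

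**Figure D4:**
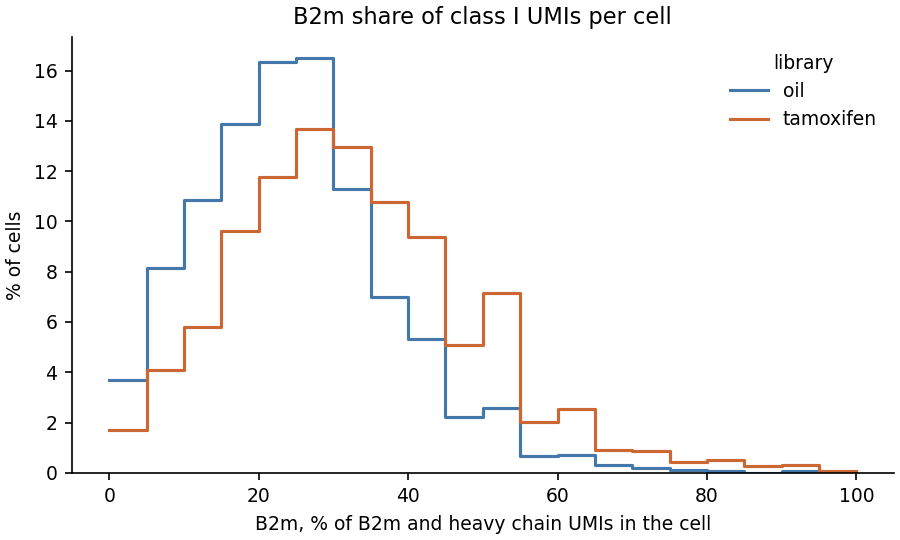
Distribution over cells of the B2m share of B2m and heavy chain UMIs (x axis, percent, in steps of 5) as a percentage of cells (y axis), for cells with at least 10 such UMIs. The tamoxifen distribution (orange) is centred higher, with a median of 30.8% against 23.5%, and has the longer right tail, with a 95th percentile of 61.0% against 47.6%.

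The upper tail was described by its cells. Of thinned cells, 184 (2.91%, 2.51 to 3.35) held 5 or more B2m UMIs under oil and 471 (7.69%, 7.03 to 8.38) under tamoxifen. They averaged 6.20 and 4.55 heavy chain UMIs, where other cells averaged 3.66 and 3.28. They also held 9.17 and 10.5 UMIs of the type I ISG list, in which Ly6e has the most counts, against 5.02 and 6.34. They were shallow, with median totals of 4729 and 5341 UMIs against 9444 and 8935. Calls of G1 phase, described further on, covered 89.1% and 93.0% of them and 44.2% and 56.9% of other cells. Cells with 10 or more heavy chain UMIs went the other way in number, with 185 (2.92%, 2.52 to 3.37) and 95 (1.55%, 1.26 to 1.89). They shared the other traits, with 7.41 and 13.3 ISG UMIs against 5.07 and 6.56, and G1 calls in 89.2% and 90.5%. Their median totals were 4966 and 4937 UMIs. These cells were picked by the counts described, so the values are a description.

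Genes whose counts went most with B2m over cells of both libraries, among 2939 genes at 50 CPM or more, were Srgn (mean r 0.324), Txnip (0.302), Fcer1a (0.299), Sgk1 (0.295) and Tespa1 (0.290). Srgn codes for the granule proteoglycan serglycin, Fcer1a for the IgE receptor alpha chain of mast cells and basophils, and Txnip for an inhibitor of thioredoxin. H2-T23 ranked 34, H2-D1 85 and H2-K1 223 for B2m. In turn B2m ranked 28 for H2-T23, 36 for H2-D1 and 5 for H2-K1. These ranks rest on r with counting noise left in. For the heavy chain sum the leading genes were Serpinb1a (0.333), Vim (0.312), Srgn (0.310), Txnip (0.286) and Lgals3 (0.280), with B2m at rank 20. Thus Srgn and Txnip stood in both lists. No ribosomal protein gene was among the top 50 of either list, which says little because only 81 of the 2939 genes were ribosomal.

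Finally, levels were compared within classes of cells, since the libraries differed in make-up. The 15 classes divide the same cells by phase call, by ISG UMIs, by mitochondrial share and by ribosomal protein share. Each cell thus falls in several classes, and tallies over them are not separate results. Calls of G1 phase, from S and G2M gene scores, covered 45.5% of thinned cells under oil and 59.6% under tamoxifen, cells with 10 or more ISG UMIs 9.48% and 18.9%, and cells over 30% ribosomal protein UMIs 5.09% and 37.3%. Among phase calls, class I was highest in G1. B2m stood there at 522 and 663 CPM, against 281 and 334 in S and 272 and 337 in G2M. The heavy chains were at 1511 and 1226 CPM in G1, 931 and 844 in S and 886 and 826 in G2M. Phase calls rest on scores of sparse counts and do not by themselves show cycling.

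In all 15 classes B2m was higher in the library labelled tamoxifen, by log2 ratios between 0.25 and 0.75. By phase call the ratio was 0.34 in G1, 0.25 in S and 0.31 in G2M. By ISG UMIs it ran from 0.25 to 0.38. Each of these was below the 0.48 of the whole library. In S and in cells with 0 to 2 ISG UMIs, B2m was not past the fold. By mitochondrial and ribosomal protein share the B2m ratio ran from 0.38 to 0.75, highest in cells under 5% mitochondrial UMIs. Heavy chains were lower in 13 of the 15 classes. Among these, the interval included 0 in cells with 25 to 30% ribosomal protein UMIs (-0.0073, -0.031 to 0.017). Heavy chains were higher in 2, the cells under 5% mitochondrial UMIs (0.076, 0.020 to 0.13) and those with 20 to 25% ribosomal protein UMIs (0.12, 0.082 to 0.16). Their largest deficit was in cells called G1, at -0.30 (-0.32 to -0.28), where the B2m ratio was 0.34 (0.31 to 0.38). Within G1 calls the log2 ratio was -0.39 for H2-T23, -0.31 for H2-D1, -0.18 for H2-K1 and -0.33 for Tap2, and Tapbp stood at 0.21 (0.12 to 0.31), no longer past the fold. B2m per heavy chain UMI was 0.346 and 0.541 in G1, 0.301 and 0.396 in S and 0.306 and 0.408 in G2M.

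B2m per heavy chain also went up with the ISG counts of the cell. From cells with 0 to 2 ISG UMIs to cells with 10 or more it ran from 0.282 to 0.414 under oil and from 0.386 to 0.564 under tamoxifen. B2m itself ran from 261 to 634 CPM and from 310 to 804 CPM, and the heavy chains from 928 to 1531 CPM and from 804 to 1425 CPM. Within each class of ISG counts, B2m per heavy chain was higher under tamoxifen, by log2 differences of 0.45 to 0.59. Cells of the same class need not be alike in interferon response. Ly6e was the most counted gene of the ISG list, with 790 and 855 CPM (log2 ratio 0.11) where Isg15 had 47.8 and 114. The ISG classes thus lean on Ly6e, and the top class has no upper limit. Tapbp was higher under tamoxifen in 14 of the 15 classes, the exception being cells with 0 to 2 ISG UMIs (-0.074, -0.24 to 0.087). In cells with 10 or more it had 80.8 and 120.1 CPM. Over all 15 classes, which reuse the same cells, the difference in B2m per heavy chain was 1.31-fold to 1.59-fold. The intervals of the 2 libraries did not overlap in any of these classes.

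**Figure D5:**
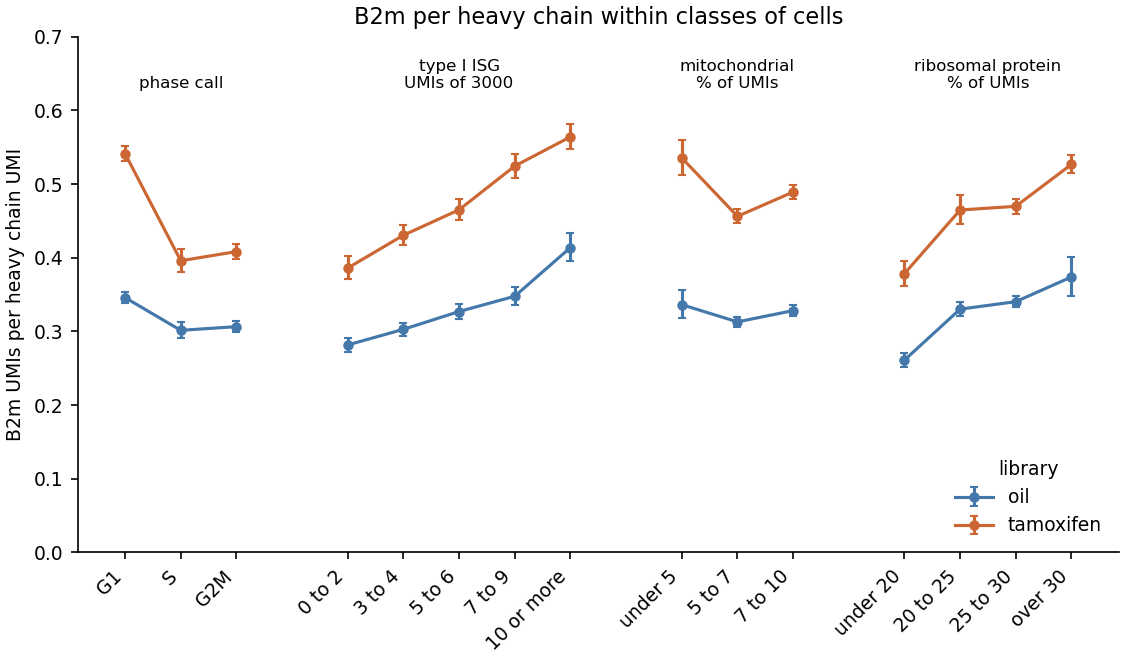
B2m UMIs per heavy chain UMI within classes of cells by phase call, type I ISG UMIs, mitochondrial share and ribosomal protein share, with exact 95% intervals (oil in blue, tamoxifen in orange). The tamoxifen point is above the oil point in all 15 classes, and both lines climb with ISG UMIs, from 0.282 to 0.414 under oil and from 0.386 to 0.564 under tamoxifen.

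Class I levels were tied to other cell features as well. In thinned cells, log2 heavy chain counts had r of -0.369 (oil) and -0.290 (tamoxifen) with total UMIs of the cell, and B2m -0.271 and -0.320. With the ribosomal protein share the heavy chains had r of -0.321 and -0.238 and B2m -0.073 and -0.034. Within the classes of ribosomal protein share the B2m log2 ratio lay between 0.38 and 0.61. The part that depth, phase calls, erythroid gene levels and ribosomal protein share play in the library difference was not tested beyond these classes.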

How the data were processed

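Both libraries were prepared with the 10x Genomics Chromium 3′ V3 kit. The files hold UMI counts, deposited by the authors without normalization after Cell Ranger on mm10. The authors analysed cells with Seurat, whose filters were not used here. The genes described, the gene lists, thresholds and alternatives were chosen with earlier results of these data known. A cell was kept if it had 500 or more genes with a UMI and no more than 10% mitochondrial UMIs, which dropped 936 and 839 barcodes. Doublets were not called. Dropping the 6% of cells richest in UMIs was an alternative. Counts were summed per library into CPM with exact Poisson intervals. Log2 ratios of tamoxifen over oil have exact conditional binomial intervals, and shares have Clopper-Pearson intervals, at 95%. Reads of 2 libraries compare those libraries and not the conditions, so no test was run, and the labels do not map cells to mice. The comparison took genes whose UMIs over both libraries reached 100, and the fold threshold was 1.2.

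Beside the 10 chosen genes and the label checks Usp18 and Isg15, genes are named by rule: the 2 highest and 2 lowest ratios of each class I list, and the 5 genes most like B2m and the heavy chain sum. Ly6e is named for its level in the ISG list, after its values were seen. In the list of regulators, 1 gene is not reported here. Cells were thinned to 3000 UMIs without replacement, with pseudocount 1 on the log2 scale. Phases were called with scanpy. Gene positions come from GENCODE M21 (30934 of 31053 identifiers matched) and promoters from RefSeq. Windows of 90 bases in the last 500 bases of protein-coding transcripts were compared with transcripts of other genes with BLAST. Ratio, interval and correlation steps were tested on simulated data. Alternatives were other cell filters, TMM (edgeR) and median-ratio (DESeq2) scaling, other totals, weights, thresholds and thinning. Versions were edgeR 4.0.16 and DESeq2 1.42.0 in R 4.3.3, BLAST 2.17.0, and scanpy 1.11.5, scipy 1.17.1, numpy 2.4.6, matplotlib 3.10.9 and pandas 2.3.3 in Python 3.11.15.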

Additional observations from a re-analysis of the deposited data

Results flagged for a closer look

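The barcodes that the cell filter left out, 936 under oil and 839 under tamoxifen, enter none of the main comparisons, only the alternatives with all barcodes or a looser mitochondrial limit, and are given here by themselves. B2m was higher and the heavy chains lower in those labelled tamoxifen. B2m had 417 CPM in those of the library labelled oil and 537 CPM in those of the library labelled tamoxifen, a log2 ratio of 0.365 (0.275 to 0.456). Heavy chains stood at 1294 CPM (oil) and 1058 CPM (tamoxifen), which is -0.291 on the log2 scale (-0.348 to -0.234). B2m UMIs per heavy chain UMI were 0.322 (0.305 to 0.340) and 0.508 (0.483 to 0.534). These barcodes come from the same pools as the kept cells and are no replicate of them.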

How the results depend on the processing

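B2m was higher and B2m per heavy chain was higher under tamoxifen in all alternatives run, with B2m log2 ratios of 0.34 to 0.78. The strict filter (at least 1000 genes, at most 5% mitochondrial UMIs) gave B2m 0.78, B2m per heavy chain 0.338 (oil) and 0.558 (tamoxifen), and r of 0.288 and 0.236, and it reversed the heavy chains (0.055), H2-K1 (0.14), H2-Q4 (0.90), H2-T23 (0.053) and Tap2 (0.16). For heavy chains and B2m, TMM gave -0.061 and 0.52, the median ratio -0.065 and 0.52, the total without mitochondrial and ribosomal protein genes -0.023 and 0.56, and equal weight per cell -0.15 and 0.54. G1 calls alone, chosen after seeing the data for the ratios and counts, gave -0.30 and 0.34. B2m per heavy chain was 0.346 and 0.541 there, and r was 0.148 and 0.137. In G1 calls 5 genes were past the fold (1 higher, 4 lower), beside 829 higher and 2003 lower of all 10527 genes. The median log2 ratio of all genes was then -0.092. Equal weight per cell gave B2m per heavy chain of 0.330 and 0.532, and leaving out the 6% of cells with the most UMIs gave 0.492 under tamoxifen and an r of 0.174. At 1.5-fold and at 2-fold 0 of the genes described were past the fold, and the share of all genes at these folds was not counted. Thinning to 2000 UMIs gave r of 0.188 and 0.147, 5000 UMIs 0.255 and 0.247, and no thinning 0.281 and 0.260. Without the log, r was 0.264 under oil, and Spearman's rho was 0.217 under tamoxifen. Of 56 alternatives for the other 7 genes, 36 stayed within the counting interval, 16 moved out of it and 4 reversed. The cause of these moves was not tested. Calls over all genes were 956 higher and 1775 lower, against 1232 and 1267 with TMM, 1199 and 1313 with the median ratio and 1525 and 952 with the total without mitochondrial and ribosomal protein genes. No paired analysis was possible because neither group has a second library. H2-Q7 and Nlrc5 have at most 8 UMIs, for a reason that was not tested, and the intervals leave out variation between mice.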
